A study of Mus musculus with 8 samples.

Results

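The 10 named genes that control the activity of CDK1 at entry into division were described in testes at postnatal day 12. They are Pkmyt1, Wee1, Cdc25a, Cdc25b, Cdc25c, Cdk1, Cdk2, Plk1, Aurka and Aurkb. These are 10 of the 24651 genes in the count files. The set was chosen by the genotype contrast of these same samples, centred on Pkmyt1, the member in which every Morc2b-/- sample was below every wild type sample. The values that chose the members are the counts per gene in the 8 samples, so genotype differences of the members are given as a description, with no test. Among the 10 genes, Pkmyt1 alone had this separation. Wild type testes had 23.8 ± 2.3 CPM of Pkmyt1, and Morc2b-/- testes had 16.9 ± 0.958 CPM (SD, n = 4 each), 28.7% lower. CPM are counts scaled to a common library size after TMM normalization.

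RNA was taken from whole pairs of testes of 12-day-old mice, 4 pairs of each genotype. Both genotypes came from crosses between Morc2b heterozygotes on a mixed background. The mutant allele, in which the PGKNeo cassette takes the place of the Morc2b coding exon, came from 1 targeted clone of V6.5 embryonic stem cells, a hybrid of C57BL/6 and 129S4/SvJae, and chimeras were bred to C57BL/6. The sample labels and the study's methods call the controls wild type, whereas the series text calls them Morc2b+/-. Libraries were stranded mRNA libraries, and reads on listed transcripts numbered 27144796 to 36941755 per sample. These are bulk samples, so fewer cells of a type and less RNA per cell cannot be told apart.

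CDK1, bound to a B-type or A-type cyclin, is the kinase that drives the transition from G2 into mitosis or into the meiotic divisions. WEE1 in the nucleus and PKMYT1 at the membranes of the endoplasmic reticulum and Golgi phosphorylate CDK1 on its ATP-binding loop and hold it inactive. The CDC25 phosphatases remove these phosphates, and PLK1 and the Aurora kinases act on the same switch and on the spindle. In the testis, spermatocytes pass through a long prophase before this switch is thrown, and spermatogonia pass it at every mitosis.

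The labels were first checked against Morc2b. It had 11.7, 16.2, 0.857 and 40.0 CPM in wild type replicates 1 to 4, and 0.323, 0.27, 3.29 and 0.0688 CPM in Morc2b-/- replicates 1 to 4. The library labelled wild type replicate 3 was therefore below the library labelled Morc2b-/- replicate 3. Germ cell and Sertoli cell markers were present in all libraries, with sums of 1948.0 to 3461.5 CPM for 14 leptotene and zygotene markers and 8217.8 to 10052.0 CPM for 10 Sertoli cell markers. Wild type replicate 1 held 249.7 CPM of epididymis markers and 153.1 CPM of spermatid markers, and Morc2b-/- replicate 3 held 309.2 CPM of spermatid markers. In the other libraries these sums were at most 14.0 and 35.6 CPM.

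Promoters are shown for Cdk1, whose level varied with spermatocyte markers across samples, and for Plk1, for which no such relation passed the test, with 2 elements known from promoters of G2/M genes. These genes were picked after the values were seen. Both promoters held both elements, and a link of the elements to that relation was not tested. RefSeq promoters (GRCm38.p6, from 250 bases before to 50 bases after the start) were searched for 6 of the 10 genes. These were Cdc25a, Cdc25b, Cdk1, Cdk2, Plk1 and Aurka. Promoters of the other 4 members, Pkmyt1, Wee1, Cdc25c and Aurkb, were not searched, so whether they hold these elements is not given. On both strands, the letters CCAAT, the box bound by NF-Y, and TTTGAA, the core of the cell cycle genes homology region, were searched. The capitals mark matches in either direction, so that the first motif also appears as its reverse complement. The first line is the minus strand of chromosome 10, chr10:69352913-69353012, the next the plus strand of chromosome 7, chr7:122159335-122159434, and the last a short piece behind the Plk1 start, chr7:122159455-122159480.
Cdk1, from -100 to -1: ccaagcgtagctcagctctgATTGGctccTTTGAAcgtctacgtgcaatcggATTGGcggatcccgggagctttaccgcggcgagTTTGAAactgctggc
Plk1, from -100 to -1: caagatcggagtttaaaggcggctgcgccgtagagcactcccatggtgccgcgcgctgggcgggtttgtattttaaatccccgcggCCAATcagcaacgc
Plk1, from 21 to 46: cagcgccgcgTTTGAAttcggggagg

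In the Cdk1 promoter TTTGAA began at -71 and -15, and CCAAT, on the other strand, at -208, -80 and -48. In Plk1, CCAAT began at -14 and TTTGAA at 31. Aurka, the Aurora kinase of the spindle poles, held CCAAT at -51 and -19 and TTTGAA at 33. Cdc25a, Cdc25b and Cdk2 held CCAAT without a match to the other motif in this window. The letters CCAAT occurred in 37.4% of 32851 promoters of the same length, TTTGAA in 17.9% and both in 6.95%. A match is a description of letters and not a bound site.

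Pkmyt1, the membrane-bound inhibitory kinase, had 23.9, 22.7, 21.5 and 26.9 CPM in wild type replicates 1 to 4 and 17.3, 15.8, 16.6 and 18.0 CPM in Morc2b-/- replicates 1 to 4. The lowest wild type and the highest Morc2b-/- value were 3.52 CPM apart, a ratio of 1.2. All 16 comparisons of a wild type with a Morc2b-/- sample went the same way. The log2 fold change, Morc2b-/- minus wild type, was -0.49 (SE 0.093) from edgeR's quasi-likelihood fit, and raw counts were 524 to 878 per library. Among all 13507 genes tested, every Morc2b-/- sample was below every wild type sample for 0.881% and above for 0.407%. The rule used that contrast, so nothing is read from 1 member in 10 against this share. Without the libraries labelled wild type replicate 3 and Morc2b-/- replicate 3, in which Morc2b went against the labels, the log2 fold change of Pkmyt1 was -0.52. Without wild type replicate 1 and Morc2b-/- replicate 3, which held epididymal or spermatid RNA, it was -0.48. Sums of the 10 Sertoli cell markers were 8217.8 to 9247.5 CPM in wild type and 9039.0 to 10052.0 CPM in Morc2b-/- samples, so they tended the other way with overlap, and their part in the Pkmyt1 difference was not tested.

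edgeR's quasi-likelihood test called 0.0% of the 13507 genes at an adjusted p under 0.05, with 249 genes at an unadjusted p under 0.05. DESeq2 called 1 gene, which was Pkmyt1. Since Pkmyt1 was chosen on this contrast, this is given as a count and not as a test of the gene. By the size of its log2 fold change Pkmyt1 stood 45th from the most negative among the 7783 tested genes with a mean of at least 10 CPM, and 39 of these 7783 genes had every Morc2b-/- sample below every wild type sample.

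Wee1, the nuclear inhibitory kinase, had 135.2, 142.7, 137.5 and 156.9 CPM in wild type and 143.4, 150.4, 143.9 and 151.7 CPM in Morc2b-/- replicates 1 to 4. The genotypes overlapped, and the log2 fold change was 0.04 (SE 0.059). The highest value of Wee1, 156.9 CPM, and its lowest, 135.2 CPM, were both wild type.

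**Figure D1:**
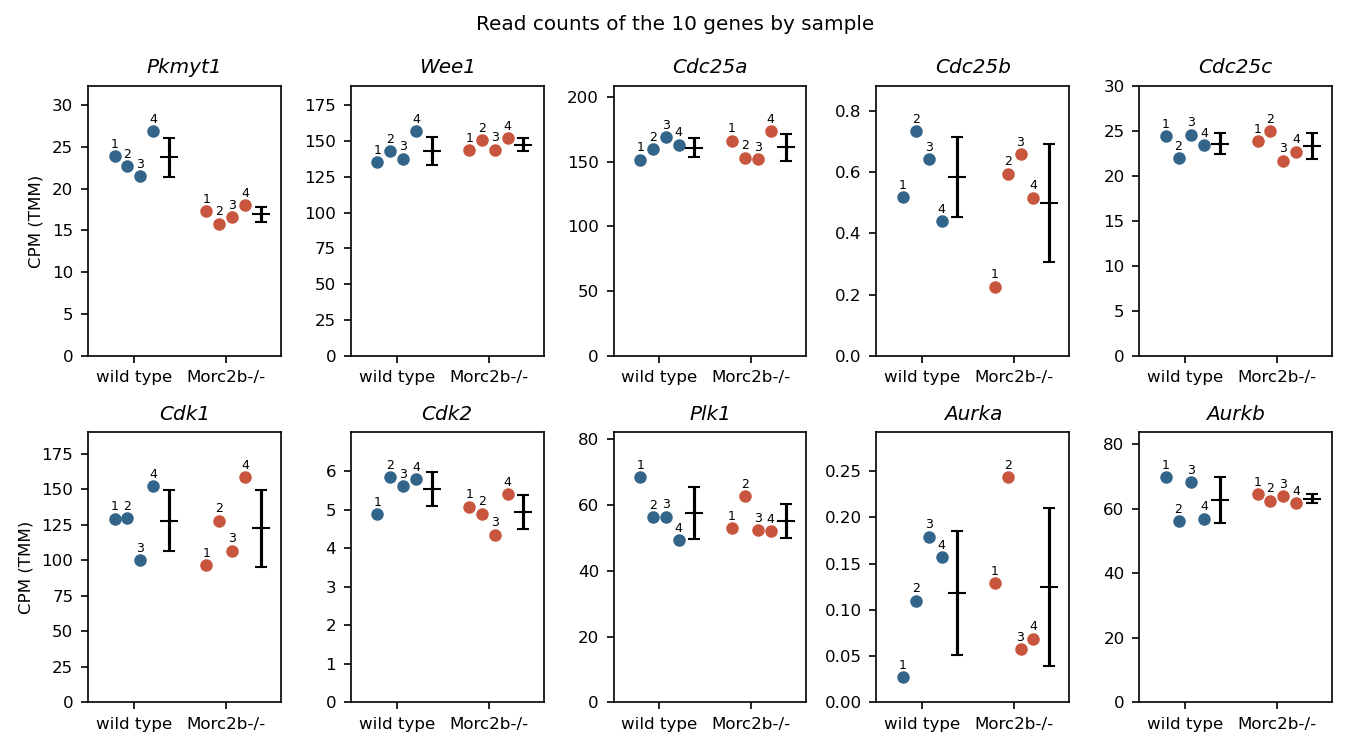
CPM of each of the 10 genes in the 4 wild type (blue) and 4 Morc2b-/- (red) samples, with replicate numbers beside the points and the mean and SD as bars. Only for Pkmyt1 do the genotypes not overlap, with 21.5 CPM as the lowest wild type and 18.0 CPM as the highest Morc2b-/- value.

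Among the phosphatases, Cdc25a, best known for G1/S and G2/M, had 151.5, 159.6, 169.1 and 163.2 CPM in wild type and 166.1, 153.1, 151.9 and 173.7 CPM in Morc2b-/- testes. Cdc25c, the phosphatase classically linked to mitotic entry, had 24.4, 22.0, 24.6 and 23.4 CPM against 23.9, 25.0, 21.7 and 22.7 CPM. For both, the genotypes overlapped and the log2 fold change was between -0.02 and 0.00, with SE of 0.061 for Cdc25a and 0.08 for Cdc25c. Cdc25b, required for the resumption of meiosis in oocytes, was counted at 0.226 to 0.734 CPM (log2 fold change -0.21, SE 0.332). This low count is a partial measure, because reads shared by its 2 listed transcripts were set aside.

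Cdk1, the kinase that the other members control, had 129.3, 129.6, 100.2 and 152.4 CPM in wild type and 96.7, 127.9, 106.8 and 158.3 CPM in Morc2b-/- testes. The range within each genotype, 100.2 to 152.4 and 96.7 to 158.3 CPM, covered most of the other, and the log2 fold change was -0.06 (SE 0.167). Cdk2, the kinase of S phase and of meiotic prophase telomeres, had 4.88, 5.83, 5.61 and 5.78 CPM against 5.07, 4.89, 4.35 and 5.4 CPM. It lay just outside the separation that chose Pkmyt1: wild type samples were higher in 13 of 16 comparisons, and wild type replicate 1 was below Morc2b-/- replicates 1, 2 and 4. The log2 fold change of Cdk2 was -0.16 (SE 0.123). Without wild type replicate 1 it separated as Pkmyt1 did, which follows from leaving out the sample that overlapped. Cdk2 too is measured in part, since only 1 of its 2 transcripts had counts.

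Plk1, which promotes CDC25 activity and WEE1 breakdown, had 68.3, 56.2, 56.4 and 49.2 CPM in wild type and 53.0, 62.7, 52.4 and 52.0 CPM in Morc2b-/- testes (log2 fold change -0.06, SE 0.108). Aurkb, the kinase of the chromosomal passenger complex, had 69.6, 56.0, 68.1 and 56.9 CPM against 64.4, 62.4, 63.9 and 61.6 CPM (log2 fold change 0.01, SE 0.084). The 4 wild type samples of Aurkb spread over a wider range, with an SD of 7.2 CPM, than the 4 Morc2b-/- samples, with an SD of 1.29 CPM. Aurka was counted 31 times in all 8 libraries together and did not pass the filter on low counts, with reads shared by its 2 listed transcripts set aside. With 9 members tested, 6 had a log2 fold change below 0, and their median was -0.06 (-0.04 without Pkmyt1, against 0.00 over all genes tested). The signs of most members depended on single samples. Leaving out 1 sample turned the sign for 6 of the 9, among them Cdc25b, which went from -0.21 to 0.02 without Morc2b-/- replicate 1, and Cdk1, which ranged from -0.21 to 0.03, whereas Pkmyt1, Wee1 and Cdk2 kept theirs.

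Levels were compared between members only per kb of the longest annotated transcript, for the 7 genes with 1 listed transcript. By this length Wee1 was the highest with 74.8 ± 3.78 CPM per kb (SD, n = 8) and Pkmyt1 the lowest with 9.98 ± 1.96 CPM per kb. Paqr4, on the other strand, shares 15.4% of the Pkmyt1 exonic bases. If strand was ignored in the counting, the Pkmyt1 level is understated. The Pkmyt1 mean pools the genotypes that Pkmyt1 was chosen to separate. It was 11.6 ± 1.13 in wild type and 8.3 ± 0.47 in Morc2b-/- samples (SD, n = 4 each). Cdc25c had 12.2 ± 0.626 and 12.0 ± 0.733, so in wild type these 2 genes were close. Wee1 had 73.7 ± 5.02 and 75.9 ± 2.23. In every one of the 8 samples Pkmyt1 was below Wee1, with a mean log2 difference of -2.92 (7.59-fold, exact two-sided sign-flip permutation test, p = 0.0078, adjusted p = 0.0078 over 6 pairs of related genes, the smallest p this design allows). Cdc25a was above Cdc25c by 1.88 on the log2 scale in all 8 samples (3.67-fold, the same exact permutation test, p = 0.0078). The other 4 pairs rest on Cdc25b, Cdk2 or Aurka and are not given. Cdc25a (44.4 CPM per kb) and Cdk1 (43.4) did not differ beyond their spread, with Cdc25a higher in 3 of 8 samples. Then followed Aurkb (32.2), Plk1 (25.5) and Cdc25c (12.1). The ranges of Cdk1 and Aurkb, of Aurkb and Plk1, and of Cdc25c and Pkmyt1 overlapped, whereas within a sample the first was higher in 7, 8 and 7 of 8 samples. The Cdk1 place depends on the length: with the mean length of its annotated transcripts it had 77.7 CPM per kb, against 74.8 for Wee1.

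**Figure D2:**
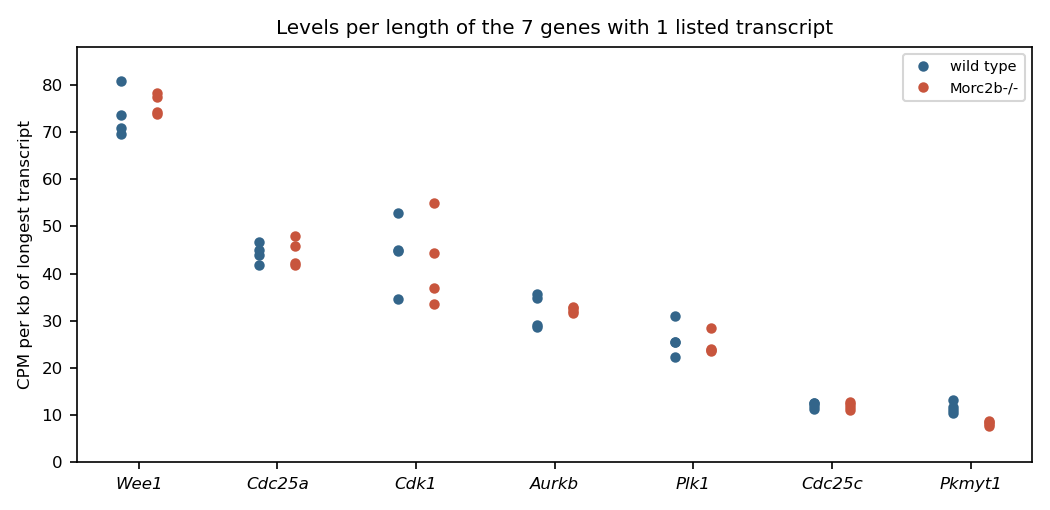
CPM per kb of the longest annotated transcript (y axis, from 0) of 7 genes in order of their mean, with each wild type (blue) and Morc2b-/- (red) sample as a point. Wee1 lies between 69.7 and 80.8 CPM per kb, and Pkmyt1 between 7.73 and 13.2.

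How the members varied among samples apart from genotype was described by deviations of log2 CPM from the genotype means, over 8 samples from 2 genotypes, which share libraries. Over the 21 pairs of the 7 well-counted genes, 9 correlations were above 0 and the median r was -0.12. The 2 inhibitory kinases had r = 0.63 (Spearman rho = 0.45) with each other, and -0.09 without the 2 samples farthest from the Pkmyt1 median, so this relation rests on those samples (exact permutation within genotypes, p = 0.2153 for r and 0.3472 for rho, adjusted p = 0.543 and 0.614 over 21 pairs). Wee1 and Cdk1 had r = 0.71 and rho = 0.83 (exact permutation p = 0.0434 and 0.0174, adjusted p = 0.543 and 0.365), and r = 0.96 without the 2 farthest samples. No pair passed the adjustment.

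The same deviations were set against the sum of 14 leptotene and zygotene spermatocyte markers, among them Dmc1, Sycp3 and Prdm9; this relation was examined after the values were seen. Cdk1 moved with the markers, with r = 0.92 and rho = 0.98 over 8 samples (exact permutation within genotypes, p = 0.0017 for both, adjusted p = 0.012 over 7 genes), and r = 0.79 without the 2 farthest samples. The test takes the 8 samples as independent. The share of all genes that moved with the markers is not given here, so the relation is not read as particular to Cdk1. In the same deviations, the 5 genes most like Cdk1 among 7782 others had r of 0.99 to 0.994 with it. The marker deviations had the same sign in all 4 same-numbered pairs of samples (-0.2 and -0.3, 0.25 and 0.06, -0.36 and -0.29, 0.3 and 0.53 on the log2 scale), and whether a number marks a shared batch or day is not given in the sources used here. Wild type replicate 4 and Morc2b-/- replicate 4 had the highest marker sums of their genotypes, 3378.5 and 3461.5 CPM, and the highest Cdk1. Wee1 (r = 0.76 and rho = 0.81, exact permutation p = 0.0191 and 0.026, adjusted p = 0.053 and 0.091) and Aurkb (r = -0.73 and rho = -0.76, p = 0.0226 and 0.0451, adjusted p = 0.053 and 0.105) did not pass the adjustment. Without the 2 farthest samples, r was 0.71 for Wee1 and -0.8 for Aurkb. Cdc25a (r = 0.34, rho = 0.12), Cdc25c (r = -0.32, rho = -0.4) and Plk1 (r = -0.31, rho = -0.45) had adjusted p = 0.477 for r and at least 0.411 for rho in the same exact permutation test. For Pkmyt1, r was 0.51 and rho 0.55 (exact permutation p = 0.2222 and 0.2101, adjusted p = 0.389 and 0.368), and r was -0.22 without the 2 farthest samples. With the marker sum as a covariate, the log2 fold change of Pkmyt1 was -0.46 (SE 0.089), and that of Cdk1 went from -0.06 (SE 0.167) to 0.06 (SE 0.079). The part of cell composition in the Pkmyt1 difference was not tested beyond this value.

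**Figure D3:**
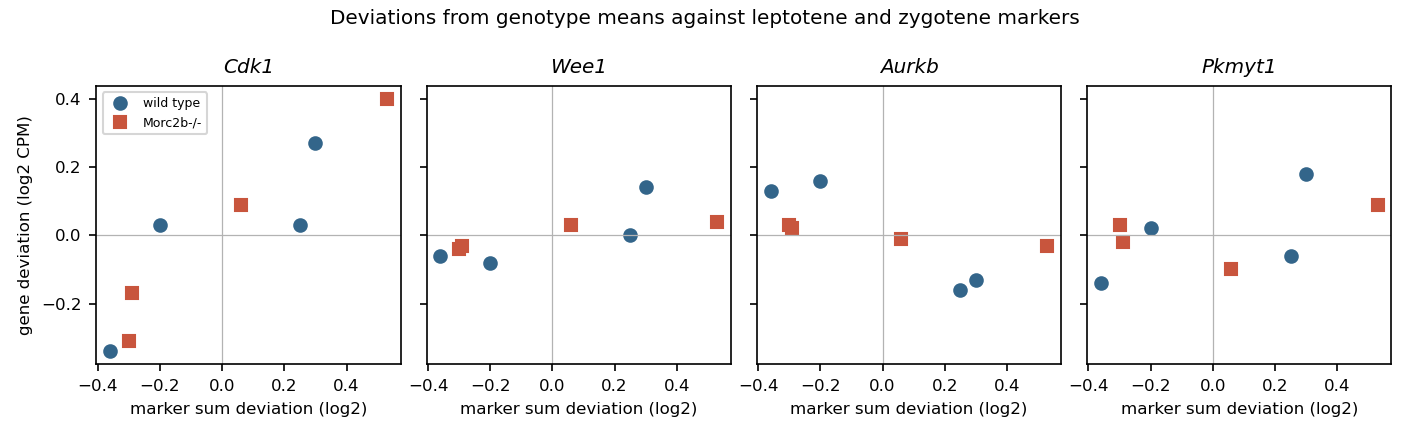
Deviation of log2 CPM from the genotype mean (y axis) of Cdk1, Wee1, Aurkb and Pkmyt1 against the deviation of the log2 sum of leptotene and zygotene markers (x axis), 4 wild type (circles) and 4 Morc2b-/- (squares) samples. Cdk1 rises with the markers (r = 0.92), whereas the Pkmyt1 points scatter (r = 0.51).

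The wider pathway was given by 7 lists with 77 genes in the files, of which 54 passed the filter on low counts and were tested. Without that filter 65 were fitted and 0 were called. The remaining pathway genes in the files had no count in any sample. Reads shared between transcripts were set aside, so a low or absent count need not mean low expression. The summaries below cover the tested genes only. In the fit without the filter, genes that had failed it could lie far from 0. Hspa2, a listed CDK partner, was at -1.28 (SE 0.405) and Gtse1 at -1.44 (SE 0.886). Plk3 was at -1.28 (SE 1.06) and Nfya at 1.54 (SE 1.33). edgeR called 0 of the 54 at an adjusted p under 0.05, with 2 at an unadjusted p under 0.05 (3.7% of these, against 1.84% of all genes tested), and DESeq2 called 0. By fold change, 21 were below 0 and 33 above 0, with a median of 0.01, and 53 of 54 were within 0.25 on the log2 scale. The exception was Ccnb3, a cyclin of meiotic prophase, with 105.4, 182.4, 98.4 and 105.2 CPM in wild type and 105.3, 273.4, 151.8 and 319.3 CPM in Morc2b-/- testes. The fitted log2 fold change was 0.79 (SE 0.35, adjusted p = 0.99981 from edgeR), and Morc2b-/- replicates 1 and 3 lay within the wild type range. This value was 0.52 without Morc2b-/- replicate 4, 1.01 without Morc2b-/- replicate 1 and 1.05 without wild type replicate 2. The study, which compared FPKM with Cuffdiff at an FDR under 0.05, reported Ccnb3 as upregulated in Morc2b-/- testes. Ywhah, a 14-3-3 protein that binds phosphorylated CDC25 and WEE1, had 220.5 ± 17.1 CPM in the wild type group and 246.5 ± 13.1 CPM in the Morc2b-/- group (SD, n = 4 each), a log2 fold change of 0.16 (SE 0.07, adjusted p = 0.99981 from edgeR).

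The median of each list, over its tested genes, was close to 0. Of 8 cyclin and CDK partners, 2 were below 0, among them Cks2, a CDK-binding subunit, with -0.19. Of 11 genes of WEE1 and CDC25 turnover and 14-3-3 proteins, 2 were below 0, and Ywhaq had 0.13. Of 8 checkpoint kinases and CDK inhibitors, 3 were below 0. The CDK inhibitor Cdkn1b had 56.0 ± 6.84 and 62.8 ± 5.63 CPM (SD, n = 4 each), and Gadd45a, a stress protein, had a log2 fold change of 0.14. Of 7 partners of PLK1 and the Aurora kinases, 4 were below 0. Birc5, the survivin subunit of the chromosomal passenger complex, was at -0.15 (-0.04 without Morc2b-/- replicate 3, -0.22 without wild type replicate 1). Plk2 was at 0.25 (0.11 without Morc2b-/- replicate 4, 0.32 without Morc2b-/- replicate 1). Of 6 genes of the Greatwall and PP2A-B55 arm, which opposes CDK1, 1 was below 0. In this list Ppp2cb, a catalytic subunit of PP2A, had every Morc2b-/- sample (173.9 to 183.0 CPM) above every wild type sample (162.6 to 173.3 CPM), and Ppp2r2a had a log2 fold change of 0.11. Of 6 anaphase-promoting complex genes, 4 were below 0, with the activators Cdc20 at -0.14 and Fzr1 at -0.04. Of 8 transcription factors of the G2/M programme, 5 were below 0, with Rbl1 at -0.15 and Mybl2 at -0.12. Leaving out 1 sample also moved Cks2, Ywhaq, Cdkn1b, Ppp2r2a, Cdc20, Fzr1, Rbl1 and Mybl2 by over 1.5 times, with Fzr1 turning to 0.05 and Rbl1 reaching 0.00 without wild type replicates 1 and 4, respectively. None of the 54 had every Morc2b-/- sample below every wild type sample.

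**Figure D4:**
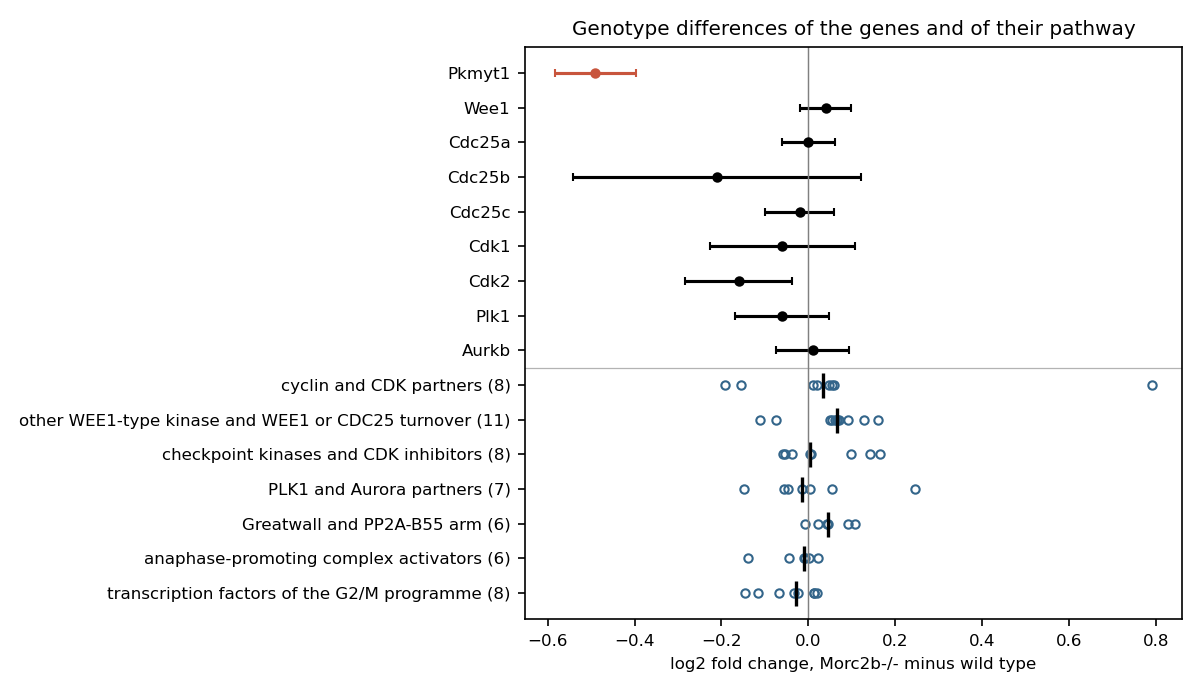
Log2 fold change, Morc2b-/- minus wild type (x axis), of the 9 tested members with SE bars (top) and of the 54 tested pathway genes by list as open circles, with the list median as a vertical tick. Pkmyt1 (red) lies at -0.49, and all tested pathway genes except Ccnb3 (0.79) lie within 0.25 of 0.

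Pkmyt1 lies on the plus strand of chromosome 17 from 23863303 to 23873696 in NCBI37/mm9, with 8 exons in its annotated transcript, and 9.41 Mb from Morc2b (33272533 to 33276628, minus strand). The allele was made in hybrid cells and selected by Morc2b, so a linked segment of chromosome 17 and the loss of Morc2b cannot be told apart for genes near it. On chromosome 17, 11 of 580 tested genes with a position (1.9%), Pkmyt1 among them, had every Morc2b-/- sample below every wild type sample and 0 above. Without Pkmyt1, which this rule chose, it was 10 of 579 (1.73%). On the other chromosomes together 94 of 10995 (0.855%) were below and 49 (0.446%) above. Chromosomes 10 and 15 also had 0 above. Single chromosomes came near the share below on chromosome 17, with 15 of 918 (1.63%) on chromosome 7 and 13 of 998 (1.3%) on chromosome 11. Apart from Pkmyt1, 5 of 178 genes within 5 Mb of Morc2b were below (2.81%), and 6 of 290 within 10 Mb (2.07%). From 10 to 20 Mb it was 0 of 105, and beyond 20 Mb 4 of 184 (2.17%), all 4 between 23.44 and 23.89 Mb. On the Pkmyt1 side of Morc2b the other separated genes were Spsb3 at -8.25 Mb (mean 1.18 CPM, log2 fold change -0.49) and Rnf8 at -3.48 Mb (mean 12.4 CPM, -0.16). On the other side, within 10 Mb, they were Skiv2l at 1.71 Mb (mean 136.2 CPM), Ddx39b at 2.11 Mb (0.665 CPM), Cchcr1 at 2.39 Mb (37.2 CPM) and Psors1c2 at 2.4 Mb (1.01 CPM). None of the 5 nearest genes on either side of Pkmyt1 was separated. Paqr4, a membrane receptor gene of the progestin and adipoQ family whose exons share 313 bases, 15.4%, with the exons of Pkmyt1 on the other strand, had 10.3 ± 2.24 CPM in wild type and 11.0 ± 1.35 CPM in Morc2b-/- testes (SD, n = 4 each). The strand setting of the counting is not given in the sources used here.

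**Figure D5:**
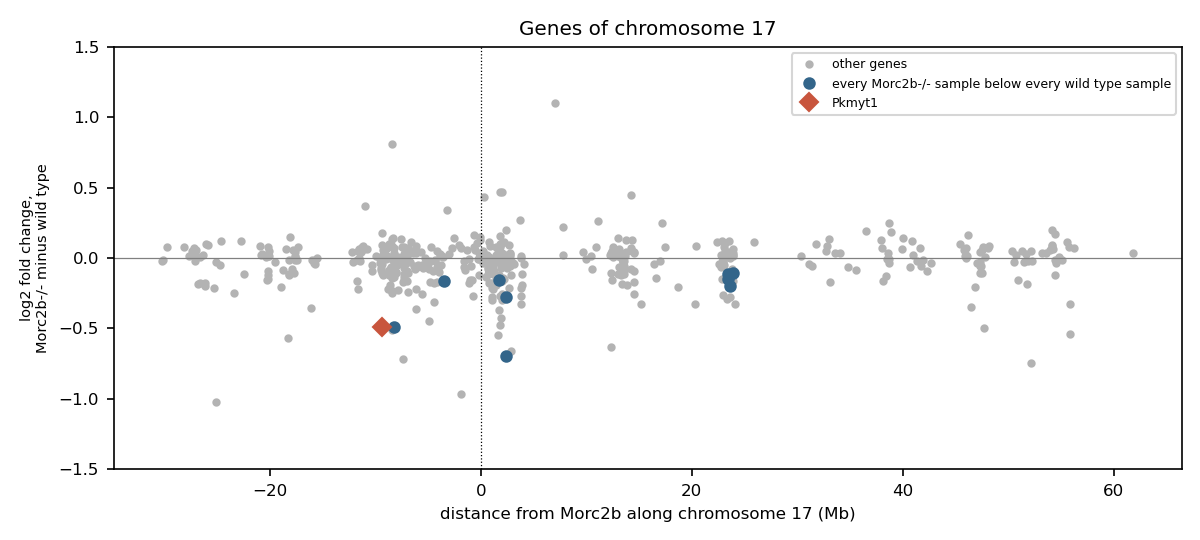
Log2 fold change, Morc2b-/- minus wild type (y axis), of 513 genes of chromosome 17 with a mean of at least 1 CPM against distance from Morc2b in Mb (x axis). Pkmyt1 (red diamond) lies at -9.41 Mb, 9 other genes with every Morc2b-/- sample below every wild type sample are blue, and Morc2b itself (-4.09) lies beyond the axis.

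The other members lie on other chromosomes of the same build: Wee1 on chromosome 7 from 117265864 to 117285626 and Plk1 on the same chromosome from 129302951 to 129313389, both on the plus strand, Cdc25a on chromosome 9 from 109778083 to 109796392 (plus strand), and Cdk1 on chromosome 10 from 68799383 to 68815686 (minus strand). Aurkb lies on chromosome 11 from 68859149 to 68865166 (plus strand). Cdc25b overlaps Spef1, and Cdc25c overlaps Gm3550, on opposite strands.

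The genes most like Pkmyt1 in log2 CPM over the 8 samples, among 7782 others with a mean of at least 10 CPM, were Ercc2 (r = 0.969), Tchp (0.916), Rccd1 (0.91), Slc9a5 (0.902) and Safb2 (0.899). This likeness includes the genotype difference that chose Pkmyt1. Ercc2, a helicase of TFIIH, had 126.8, 126.2, 120.2 and 133.8 CPM in wild type and 114.5, 110.5, 116.4 and 114.5 CPM in Morc2b-/- testes, and Safb2 had 204.0 to 217.7 against 177.1 to 192.6 CPM. In all but Rccd1 the genotypes did not overlap. After the genotype means were removed, the most similar genes were others: Dusp12 (r = 0.995), Mgat3 (0.984), Adam23 (0.972), Fbxw5 (0.959) and Mccc2 (0.951). They are the highest of 7782 genes over 8 samples, a choice that itself favours high r, and no relation was tested. For these 5 genes the log2 fold changes lay between -0.09 and 0.09, and Dusp12, a phosphatase, had 28.1 to 39.1 CPM in wild type and 30.2 to 38.4 CPM in Morc2b-/- testes.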

How the data were processed

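RNA-seq of 8 pairs of testes (4 wild type, 4 Morc2b-/-) was analysed. The authors trimmed the reads and used Tophat to map them to NCBI37/mm9. The authors deposited raw read counts per RefSeq transcript for each sample, neither pooled nor normalized. The submitters' processing notes name Cufflinks and Cuffdiff, whose FPKM values were not used here. The counting program and its strand setting are not given in the sources used here. Reads overlapping more than 1 transcript, 26.8% to 28.8% of uniquely aligned reads, were set aside and are in no count. Of 35819 transcripts, 35522 matched a symbol, and counts were summed to 24651 genes. The genotype contrast was fitted by edgeR 4.0.16 under R 4.3.3 (TMM, filterByExpr, quasi-likelihood test, Benjamini-Hochberg adjusted p under 0.05). Log2 CPM used a prior count of 2. Depth was 27144796 to 36941755 counts per sample, and p-values measure the spread between these samples. Lengths and positions are from the GENCODE annotation of NCBIM37, which may differ from the authors' transcripts.

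Named genes were the 10 members, Morc2b, the 2 pathway genes per list with the largest fold change among those with at least 1 CPM, and the 5 genes most like Pkmyt1 by each of 2 measures. Spsb3, Rnf8, Skiv2l, Ddx39b, Cchcr1, Psors1c2, Paqr4, Spef1, Gm3550, Hspa2, Gtse1, Plk3 and Nfya were named after their values or positions were seen. The members and lists were chosen with earlier results of these data known. Marker lists of spermatogonia, leptotene and zygotene spermatocytes, pachytene spermatocytes, spermatids, Sertoli, Leydig, peritubular myoid and proliferating cells, macrophages and epididymis were summed. Their wild type and Morc2b-/- ranges overlapped, in CPM 1333.7 to 1749.5 and 1479.9 to 1709.2 for spermatogonia, 123.1 to 431.0 and 124.1 to 261.8 for pachytene, 8217.8 to 9247.5 and 9039.0 to 10052.0 for Sertoli cells, 118.7 to 592.9 and 123.2 to 650.3 for Leydig cells, 784.1 to 1693.6 and 809.5 to 999.4 for peritubular myoid cells, 128.6 to 149.4 and 110.9 to 177.7 for macrophages, and 2148.3 to 2611.5 and 2036.8 to 2384.5 for proliferating cells. Lcn5, Lcn9 and Tyms were at 0 in all samples. Alternatives were RLE or total count scaling, DESeq2 1.42.0, other filters, a replicate block, other lengths and prior counts, and leaving out each sample. Added after seeing the data were pairs of libraries left out, a marker covariate, and the correlation tests. The edgeR step was tested on simulated data. Figures used matplotlib 3.10.9.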

Additional observations from a re-analysis of the deposited data

Results flagged for a closer look

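In groups of 4 samples, a sample was picked out where its gap to the nearest other sample was a larger part of the group's range than Dixon's 95% critical value, which chance gives in about 1 in 20 groups. This was examined in 68 groups, and 8 values were picked out, several of them from the same library. Plk1 had 62.7 CPM in Morc2b-/- replicate 2, against 52.0 to 53.0 CPM in the other 3. Ccnb3 had 182.4 CPM in wild type replicate 2, against 98.4 to 105.4 CPM. Birc5 had 12.9 CPM in Morc2b-/- replicate 3, against 17.8 to 18.6 CPM. Wild type replicate 1 had 153.1 CPM of spermatid markers (others 3.05 to 3.86), 1693.6 CPM of peritubular myoid markers (others 784.1 to 865.0) and 249.7 CPM of epididymis markers (others 0.679 to 1.39). Morc2b-/- replicate 3 had 309.2 CPM of spermatid markers (others 4.33 to 35.6), and Morc2b-/- replicate 2 had 14.0 CPM of epididymis markers (others 0.584 to 1.55). Pkmyt1 had no such sample, and its log2 fold change without wild type replicate 1 and Morc2b-/- replicate 3 was -0.48.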

How the results depend on the processing

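The log2 fold change of Pkmyt1 stayed between -0.53 and -0.43 over 17 alternatives and moved by less than 1 SD between replicates, with -0.53 to -0.43 when 1 sample was left out at a time. All 120 alternative values of the other 8 tested members moved by less than 1 SD, although 6 of these 8 members changed sign with 1 sample left out. DESeq2 called 1 gene in place of 0, and this was Pkmyt1, and every other alternative called 0. Pkmyt1 was chosen on this contrast, so the call is not a test of the gene. The count of separated members was 1 to 2 with 1 sample left out, and 2 without wild type replicate 1 and Morc2b-/- replicate 3, where Cdk2 joined. Wild type replicate 1 was the sample that kept Cdk2 from separating, and fewer samples separate more easily. The share of all genes separated in these settings is not given, so nothing is read from this count. The median correlation between members was -0.12, and ranged from -0.18 to 0.01, the highest without wild type replicate 1, with 1 sample left out. The level differences between Pkmyt1 and Wee1 and between Cdc25a and Cdc25c kept their direction and their side of the threshold in every alternative. A replicate block in the fit gave 0 called genes, 572 at an unadjusted p under 0.05, and Pkmyt1 was at -0.49. The labels do not say what a number marks. Over all genes, same-numbered samples correlated at -0.322 to 0.453 and differently numbered samples at -0.498 to 0.614. Of 4 wild type samples, 2 matched best with their own number. Among the members, Aurka, Cdc25b and Cdk2 were measured in part, since reads shared by their transcripts were set aside. Pathway genes with low or no counts may be affected in the same way.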
